A study of Mus musculus with 6 samples.

Results

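Spermatogenic RNA-binding and translation regulators are described here by 10 genes: Dazl, Boll, Ybx2, Ybx3, Ddx25, Tarbp2, Papolb, Cpeb1, Cpeb2 and Eif4g3. They were chosen by symbol and make up 10 of the 53700 gene identifiers counted, and 10 of 10 passed the filter on low counts. Testes came from mice at postnatal day 45 of the strain written Msl3em1Forni/C57BL/6J, which the labels give to both groups. The genotype is MSL3 WT for 3 mice and MSL3 cKO, a conditional knockout of a floxed Msl3 allele, for the other 3. The labels call the libraries of a group biological replicates, 1 per mouse. The driver of the recombinase and the cells in which it acts are not given in the sources used here. In 10 of 10 genes no change passed the test between the groups. Eif4g3, higher in the libraries labelled cKO, and Papolb, lower in them, had the smallest unadjusted edgeR p. The log2 fold change of cKO over WT was 0.25 for Eif4g3 and -0.15 for Papolb. Cpeb1 and Cpeb2, at 0.15 and 0.14, differed about as much as Papolb, in the other direction.

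Male germ cells make many messenger RNAs well before the protein is needed, because transcription ends as the spermatid nucleus is compacted. RNA-binding proteins hold these messages in storage, poly(A) polymerases and polyadenylation factors change the length of their tails, and initiation factors then load them on ribosomes. Dazl and Boll are RNA-binding proteins of the DAZ family, named after a Y-linked gene that some infertile men lack. Ybx2 and Ybx3 are Y-box proteins that coat stored messages and, as DNA-binding proteins, recognise the Y box, a promoter element built around the letters CCAAT read on the reverse strand.

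Promoter sequences are shown for 4 genes because the Y box is the element that names the Ybx genes: both Ybx genes, Tarbp2, whose window holds the most CCAAT matches among these genes, and Papolb. The sequences are from RefSeq, build GRCm38.p6, 5′ to 3′ on the strand of the gene. They are restricted to bases that lie before the gene start in both RefSeq and GENCODE M21. Capitals mark CCAAT or its reverse complement ATTGG.
Ybx2, chr11:69935649-69935795, plus strand: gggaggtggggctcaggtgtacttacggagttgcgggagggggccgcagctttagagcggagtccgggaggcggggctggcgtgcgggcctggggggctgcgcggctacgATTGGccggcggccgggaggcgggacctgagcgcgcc
Ybx3, chr6:131388477-131388700, minus strand: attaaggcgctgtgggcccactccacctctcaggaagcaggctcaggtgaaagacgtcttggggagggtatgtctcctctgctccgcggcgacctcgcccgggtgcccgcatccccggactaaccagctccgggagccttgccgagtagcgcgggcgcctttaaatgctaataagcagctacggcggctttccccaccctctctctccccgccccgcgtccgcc
Tarbp2, chr15:102517942-102518191, plus strand: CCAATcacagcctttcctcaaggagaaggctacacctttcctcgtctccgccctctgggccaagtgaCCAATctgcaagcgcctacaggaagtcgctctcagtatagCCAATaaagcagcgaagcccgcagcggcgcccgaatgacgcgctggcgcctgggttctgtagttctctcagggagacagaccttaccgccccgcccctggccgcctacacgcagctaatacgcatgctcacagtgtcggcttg
Papolb, chr5:142530077-142530326, minus strand: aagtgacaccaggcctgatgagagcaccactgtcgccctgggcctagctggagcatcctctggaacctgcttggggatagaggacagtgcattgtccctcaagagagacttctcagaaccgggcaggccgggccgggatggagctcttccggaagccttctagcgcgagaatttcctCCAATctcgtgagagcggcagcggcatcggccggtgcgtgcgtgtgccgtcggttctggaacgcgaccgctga

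The 250 bases before the RefSeq start were searched on both strands in the 9 of 10 genes with an entry, which leaves out Cpeb2. CCAAT was found 3 times in Tarbp2, 2 times in Ybx2 and 1 time each in Dazl, Ddx25 and Papolb. Boll, Ybx3, Cpeb1 and Eif4g3 had 0 matches. Of 27025 mouse promoter windows of the same length, 34.5% held at least 1 match, 10.5% at least 2 and 2.98% at least 3. The shorter core TGACG of the cyclic AMP response element was found 1 time each in Dazl, Tarbp2 and Cpeb1, against 17.8% of all windows with at least 1. The whole element TGACGTCA, which contains that core on each strand, was found in 0 of the 9 genes and in 1.60% of all windows. These matches describe letters in a window and show no binding.

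Reads assigned to genes numbered 56991431 to 73766444 per library, the most in cKO replicate 1. CPM, counts scaled to one common library total, are computed here on TMM-scaled library sizes. Msl3 showed a mean level of 16.9 ± 1.68 CPM (SD, n = 3) under the WT label and 15.6 ± 0.649 CPM (SD, n = 3) under the cKO label (edgeR adjusted p = 0.551). Gene counts cover parts of a gene that a conditional allele may leave in place, so this level does not check the genotype and groups are named by their labels. Markers of spermatogonia, spermatocytes, spermatids, Sertoli, Leydig and peritubular myoid cells and macrophages were present, with 0 of them at 0. Of 4 genes of other tissues, Alb, Ins2 and Umod stayed at or below 0.123 CPM and Myh6, a heart myosin, lay between 1.94 and 2.74 CPM. Round spermatid markers were lower in 5 of 6 genes, and their summed level was 1046 to 1157 CPM in WT and 999 to 1037 CPM in cKO libraries. Elongating spermatid markers were lower in 4 of 6 genes, with summed levels of 17222 to 18896 and 14653 to 17676 CPM. Sertoli cell markers were higher in 5 of 6, at 1157 to 1407 and 1187 to 1539 CPM, and spermatogonia markers in 5 of 6, at 113 to 133 and 117 to 132 CPM. Spermatocyte markers were higher in 4 of 6, Leydig markers lower in 4 of 6, and myoid and macrophage markers lower in 3 of 4 each. Of all these markers 0 passed the edgeR adjusted threshold. In whole testis, fewer cells of a type and less RNA per cell cannot be told apart. Differences between the groups also moved with exonic length, as described below. The elongating spermatid markers have 0.437 to 3.03 kb of exons. The part of length in the marker values was not tested.

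Levels can be set against each other only per length, as CPM per kilobase of exonic sequence. The length joins the exons of all annotated transcripts of a gene, and which transcripts these testes make was not measured. The order of the genes rests on that length. On this scale Ybx2 was highest at 937 ± 78.4 (SD, n = 3) in WT libraries, and Ybx3 followed at 635 ± 43.1 (SD, n = 3). Papolb stood at 223 ± 11.1 and Ddx25 at 89.6 ± 1.59 (SD, n = 3). Dazl, Cpeb2, Boll and Eif4g3 came next, between 39.3 and 49.8 in the WT mean, and each overlapped its neighbour in this order over the 6 libraries. Tarbp2 had 20.5 ± 0.803 and Cpeb1 only 2.93 ± 0.388 (SD, n = 3). From Ybx2 to Dazl, and from Eif4g3 through Tarbp2 to Cpeb1, the ranges of neighbours over the 6 libraries did not overlap.

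**Figure D1:**
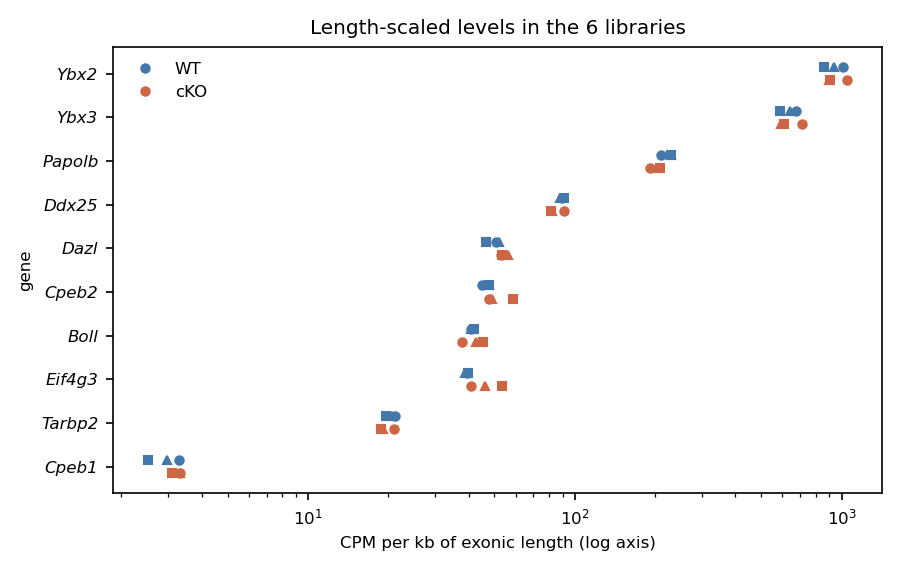
CPM per kilobase of exonic length (horizontal, log axis) for the 10 genes (vertical) in 3 WT (blue) and 3 cKO (orange) libraries; circle, square and triangle are replicates 1, 2 and 3. Ybx2 lies between 859 and 1048 and Cpeb1 between 2.52 and 3.32, while Dazl, Cpeb2, Boll and Eif4g3 share a range.

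The DAZ family genes came first. Dazl (ENSMUSG00000010592, chromosome 17) acts from spermatogonia into meiosis and promotes translation of the messages it binds. It had 194, 178 and 199 CPM in WT replicates 1 to 3 and 202, 205 and 215 CPM in cKO replicates 1 to 3. All cKO libraries lay above all WT libraries, WT replicate 2 being the lowest. The log2 fold change was 0.12 (SE 0.068, 95% limits -0.03 to 0.27) with an edgeR adjusted p of 0.439. With library totals as the only scaling the Dazl groups overlapped, and without WT replicate 2 the value was 0.076. Boll (ENSMUSG00000025977, chromosome 1), the ancestral member of the family, which acts later in male germ cells, had 143, 148 and 144 CPM in WT and 133, 159 and 149.9 CPM in cKO libraries. The cKO libraries lay on both sides of the WT libraries, and the log2 fold change was 0.02 (SE 0.075, 95% limits -0.14 to 0.19; edgeR adjusted p = 0.918).

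The Y-box genes had the highest levels and nearly no difference between the groups. Ybx2 (ENSMUSG00000018554, chromosome 11), the germ cell Y-box protein, had 1914, 1618 and 1768 CPM in WT and 1976, 1713 and 1697 CPM in cKO libraries. Ybx3 (ENSMUSG00000030189, chromosome 6), which is also made in somatic cells, had 2077, 1814 and 1969 CPM in WT and 2186, 1879 and 1817 CPM in cKO libraries. Replicate 1 was the highest library of its group for both genes. The log2 fold change was 0.02 (SE 0.083, 95% limits -0.16 to 0.20) for Ybx2 and 0.01 (SE 0.083, 95% limits -0.18 to 0.19) for Ybx3, with edgeR adjusted p of 0.927 and 0.984.

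Ddx25 and Tarbp2 act on translation by other means. Ddx25 (ENSMUSG00000032101, chromosome 9) is a testis RNA helicase that responds to gonadotropin and takes part in export and translation of spermatid messages. It had 623, 631 and 609 CPM in WT and 632, 565 and 568 CPM in cKO libraries. The libraries of cKO replicates 2 and 3 lay below all WT libraries and cKO replicate 1 above them, and the log2 fold change was -0.08 (SE 0.067, 95% limits -0.23 to 0.07; edgeR adjusted p = 0.634). This value was -0.13 without cKO replicate 1 and -0.048 without cKO replicate 2. Tarbp2 (ENSMUSG00000023051, chromosome 15) encodes a double-stranded RNA-binding protein that works with Dicer and is required for timely protamine translation. It had 96.8, 89.6 and 93.9 CPM in WT and 95.2, 85.2 and 87.3 CPM in cKO libraries, with overlapping groups and a log2 fold change of -0.07 (SE 0.069, 95% limits -0.22 to 0.09; edgeR adjusted p = 0.711). For Tarbp2 it was -0.12 without cKO replicate 1, -0.033 without cKO replicate 2 and -0.038 without WT replicate 1. Of the 31-base words of Tarbp2 transcripts, 16.6% also occur in the processed pseudogene Gm18584, which itself stayed between 0.663 and 1.04 CPM. How reads of these shared words were counted was not tested, so the Tarbp2 count is uncertain to that extent.

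Papolb, the testis-specific cytoplasmic poly(A) polymerase of spermatids, was the gene with the lowest fold change. Papolb (ENSMUSG00000074817) has 1 exon and lies on chromosome 5 (GRCm38, 142525838 to 142530076) within an intron of Radil on the same strand. It had 889.7, 969 and 973 CPM in WT and 812, 884 and 859 CPM in cKO libraries. All cKO libraries lay below all WT libraries, with WT replicate 1 and cKO replicate 2 close to each other. The mean was 944 ± 47.2 CPM (SD, n = 3) in WT and 852 ± 36.6 CPM (SD, n = 3) in cKO. The log2 fold change was -0.15 (SE 0.067, 95% limits -0.30 to -0.0019), the unadjusted edgeR p was 0.0476 and the adjusted p was 0.355. Radil had 52.9 ± 4.99 CPM (SD, n = 3) in WT and 60.7 ± 1.95 CPM (SD, n = 3) in cKO libraries (log2 fold change 0.20, edgeR adjusted p = 0.313). The part of Radil transcription in the Papolb value was not tested. The part of the lower round spermatid markers in the Papolb value was not tested.

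The Cpeb genes encode RNA-binding proteins named after the cytoplasmic polyadenylation element of messages. Cpeb1 (ENSMUSG00000025586, chromosome 7), which is required for early meiotic prophase, had 13.8, 10.6 and 12.4 CPM in WT and 13.9, 13.0 and 13.9 CPM in cKO libraries. The groups overlapped through WT replicate 1, and the log2 fold change was 0.15 (SE 0.10, 95% limits -0.07 to 0.37; edgeR adjusted p = 0.528). It was 0.050 when WT replicate 2 was left out and 0.24, without overlap, when WT replicate 1 was (edgeR adjusted p = 0.234). With 685 to 1015 reads per library, Cpeb1 had the fewest reads and the widest limits of the 10 genes. Cpeb2 (ENSMUSG00000039782, chromosome 5) had 351, 375 and 374 CPM in WT and 372, 459.9 and 384 CPM in cKO libraries. Here cKO replicate 2 stood above the other 5 libraries, and the log2 fold change was 0.14 (SE 0.084, 95% limits -0.04 to 0.33; edgeR adjusted p = 0.459). The Cpeb2 value was 0.045 when cKO replicate 2 was left out and 0.20 when cKO replicate 1 was (edgeR adjusted p = 0.832 and 0.227).

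Eif4g3, an initiation factor scaffold needed for spermatocytes to enter the meiotic divisions, had the largest difference. Eif4g3 (ENSMUSG00000028760, chromosome 4) had 437, 439 and 429.9 CPM in WT and 452, 593 and 508 CPM in cKO libraries. All cKO libraries lay above all WT libraries, cKO replicate 1 narrowly and cKO replicate 2 by far. With library totals as the only scaling the Eif4g3 groups overlapped. The mean was 435 ± 4.62 CPM (SD, n = 3) in WT and 518 ± 71.0 CPM (SD, n = 3) in cKO, so nearly all of the spread was within the cKO group. The log2 fold change was 0.25 (SE 0.089, 95% limits 0.06 to 0.44), with an unadjusted edgeR p of 0.0157 and an adjusted p of 0.305. Without cKO replicate 1 the log2 fold change was 0.34 and Eif4g3 passed the threshold (edgeR adjusted p = 0.0349), in a fit that called 628 genes in all. Without cKO replicate 2 it was 0.14 (edgeR adjusted p = 0.593). Without WT replicate 3 it was 0.23 (edgeR adjusted p = 0.7295), and in neither of these fits was the unadjusted p under 0.05.

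**Figure D2:**
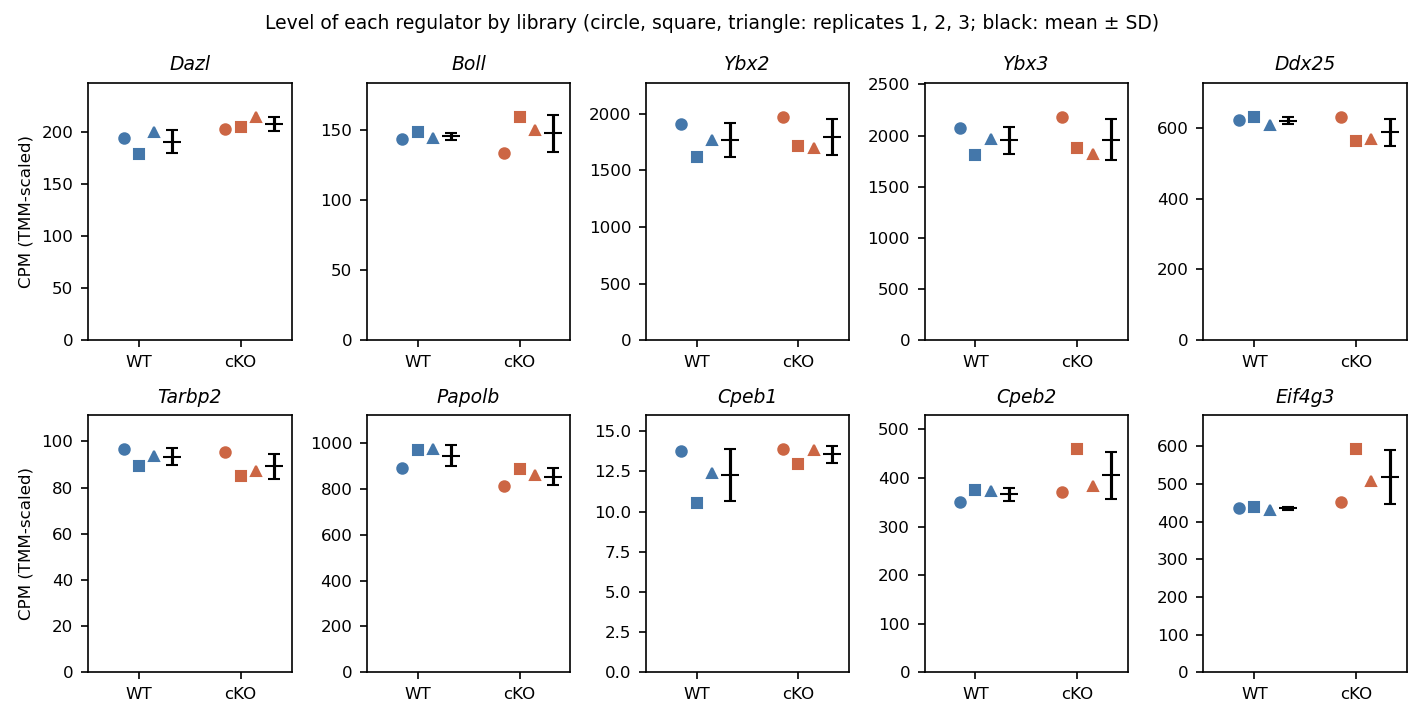
CPM (vertical, from 0) of each gene in the WT (blue) and cKO (orange) libraries; circle, square and triangle are replicates 1, 2 and 3, and black bars are mean ± SD (n = 3). For Eif4g3 the WT libraries lie between 429.9 and 439 CPM and the cKO libraries between 452 and 593.

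Across the 21902 genes in the fit, 4 had an edgeR adjusted p under 0.05 (0.0183%), against 0 of the 10 regulators. At an unadjusted edgeR p under 0.05 there were 13.9% of all tested genes and 2 of 10 regulators, Eif4g3 and Papolb. The groups did not overlap in 18.9% of all tested genes and in 3 of 10 regulators, Dazl, Papolb and Eif4g3. Among 10051 genes averaging 10 CPM or more, a range that includes every one of the 10, these shares were 20.7% and 25.2%, so the counts for the regulators are near the background. The median log2 fold change of the 10 was 0.02, against 0.00311 over all tested genes, and 7 were above 0 and 3 below. Of all tested genes 50.7% lay above 0, and 59.6% of those averaging 10 CPM or more. Without WT replicate 3 the count at an unadjusted edgeR p under 0.05 was 0 of 10, where 6.36% of all tested genes were under 0.05. Without cKO replicate 1 the groups did not overlap in 7 of 10, where 34.1% of all tested genes did not in that comparison of 3 libraries with 2. The count under 0.05 was 1 without cKO replicate 2, WT replicate 2 or cKO replicate 3. Of all tested genes 8.44%, 7.35% and 10.04% were under 0.05 in these fits, also less than the 13.9% with all libraries. The count was 2 without cKO replicate 1 and 3 without WT replicate 1, where 17.1% and 18.2% of all tested genes were under 0.05.

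Genes related to the regulators in sequence or function were read next. Of these 11 genes, 0 passed the edgeR threshold, 1 had an unadjusted p under 0.05 and 9 had a log2 fold change above 0, beside the 59.6% of genes averaging 10 CPM or more. Eif4g1, the broadly expressed scaffold of the same complex as Eif4g3, had 386, 359.6 and 377 CPM in WT and 411, 441 and 402 CPM in cKO libraries. Its groups did not overlap, and its log2 fold change was 0.16 (SE 0.066; edgeR adjusted p = 0.328). Eif4g2 had 0.08 and Papola, the nuclear poly(A) polymerase, 0.11 on the log2 scale, also without overlap (edgeR adjusted p = 0.579 and 0.450). Prkra, the relative of Tarbp2, lay lower without overlap, at -0.13 (edgeR adjusted p = 0.485). Ybx1, Papolg, Cpeb3, Cpeb4, Ddx19a, Ddx19b and Adad1 had log2 fold changes of 0.02, -0.02, 0.05, 0.13, 0.15, 0.03 and 0.07, with overlapping groups. Ddx19a shares 32.0% of its 31-base words with Ddx19b, and Ybx1 shares 25.9% with other genes, mostly its pseudogenes, so both counts are uncertain.

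**Figure D3:**
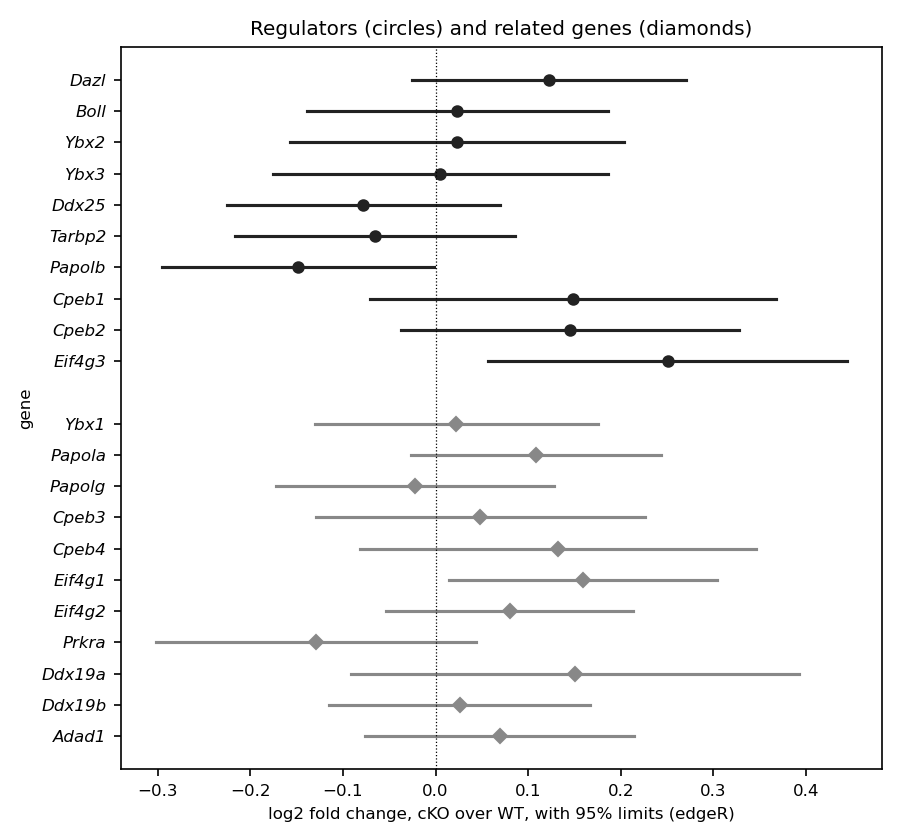
Log2 fold change of cKO over WT (horizontal) with 95% limits from edgeR for the 10 regulators (black circles) and 11 related genes (grey diamonds), by gene (vertical). The limits of Eif4g3 run from 0.06 to 0.44 and those of Papolb reach -0.0019; neither gene passed the adjusted threshold.

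Ratios of reads within a library do not depend on scaling, so 5 pairs of related genes were tested on them; the exact permutation test, two-sided, cannot go below 0.1 with 3 libraries against 3. The ratio of Papolb to Papola was 4.75, 5.27 and 5.23 in WT and 4.18, 4.29 and 4.28 in cKO libraries, without overlap. The difference in log2 ratio was -0.26 (exact permutation p = 0.1, Benjamini-Hochberg adjusted over 5 pairs 0.5). It includes the log2 fold change of 0.11 of Papola itself. A ratio does not take out differences that move with exonic length, which are described below. Papolb and Papola have 4.24 and 6.59 kb of exons, and Eif4g3 and Eif4g1 have 11.1 and 7.30 kb. Ybx2 to Ybx3 was the steadiest pair, between 0.892 and 0.934 in all 6 libraries, although the CPM of each gene moved between libraries by more than this. Dazl to Boll ranged from 1.20 to 1.52, Cpeb1 to Cpeb2 from 0.0282 to 0.0393 and Eif4g3 to Eif4g1 from 1.10 to 1.34, each with overlapping groups. Their differences in log2 ratio were 0.10, 0.02 and 0.08, and that of Ybx2 to Ybx3 was 0.02 (exact permutation p from 0.4 to 0.9). When a library was left out, Dazl to Boll ran from 0.042 without WT replicate 2 to 0.17 without cKO replicate 2, and Eif4g3 to Eif4g1 from 0.020 without cKO replicate 2 to 0.17 without cKO replicate 1.

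**Figure D4:**
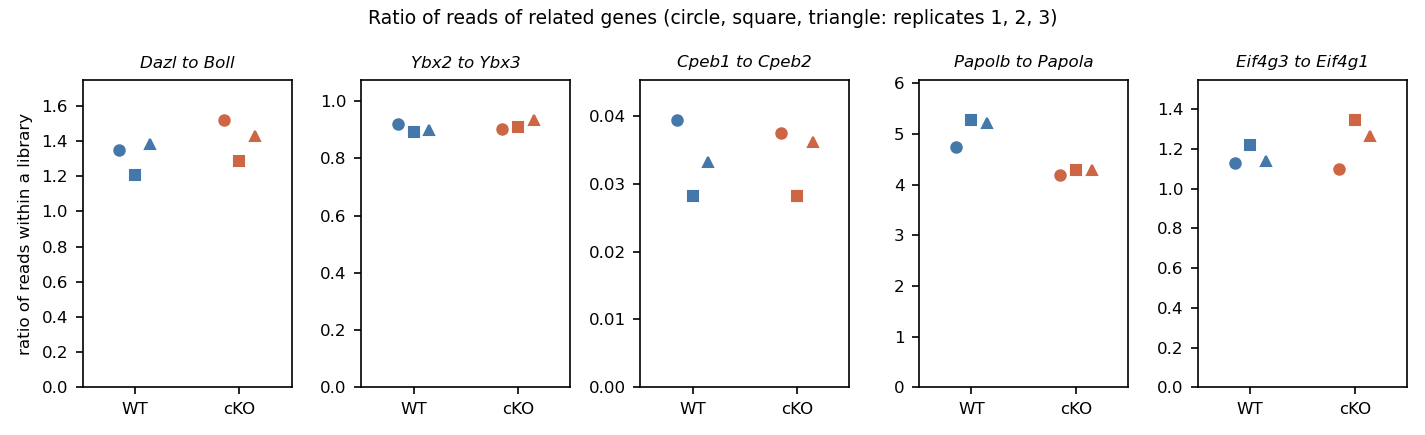
Ratio of reads of 2 related genes within a library (vertical, from 0) for 5 pairs in WT (blue) and cKO (orange) libraries; circle, square and triangle are replicates 1, 2 and 3. Papolb to Papola is 4.75 to 5.27 in WT and 4.18 to 4.29 in cKO, and Ybx2 to Ybx3 stays between 0.892 and 0.934.

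Exonic length moved with the differences. The genes averaging 1 CPM or more were divided by exonic length into 10 bins of near equal size, and the median log2 fold change went from -0.17 in the shortest bin to 0.14 in the longest. In the longest bin, from 9.35 kb upwards, the median log2 deviation from the WT mean was 0.01 in cKO replicate 1, 0.23 in cKO replicate 2 and 0.15 in cKO replicate 3. Eif4g3 has 11.1 kb of exons and deviated by 0.06, 0.45 and 0.22 in the same libraries, the same order and more in each. Cpeb2, with 7.82 kb, deviated by 0.02, 0.33 and 0.07. Papolb, with 4.24 kb, deviated by -0.22, -0.09 and -0.14, where genes of its bin had medians of 0.05, 0.01 and 0.02. A correction for length was added with the data in view. Under it the log2 fold change was 0.13 for Eif4g3 (edgeR adjusted p = 0.617), 0.06 for Cpeb2 (edgeR adjusted p = 0.841) and -0.17 for Papolb (edgeR adjusted p = 0.527). Ddx25 and Ybx2 moved away from 0 under it, to -0.14 and 0.076 (edgeR adjusted p = 0.608 and 0.844). The correction takes out any trend with length, whatever its source. The part of length in the values of these genes was not tested.

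**Figure D5:**
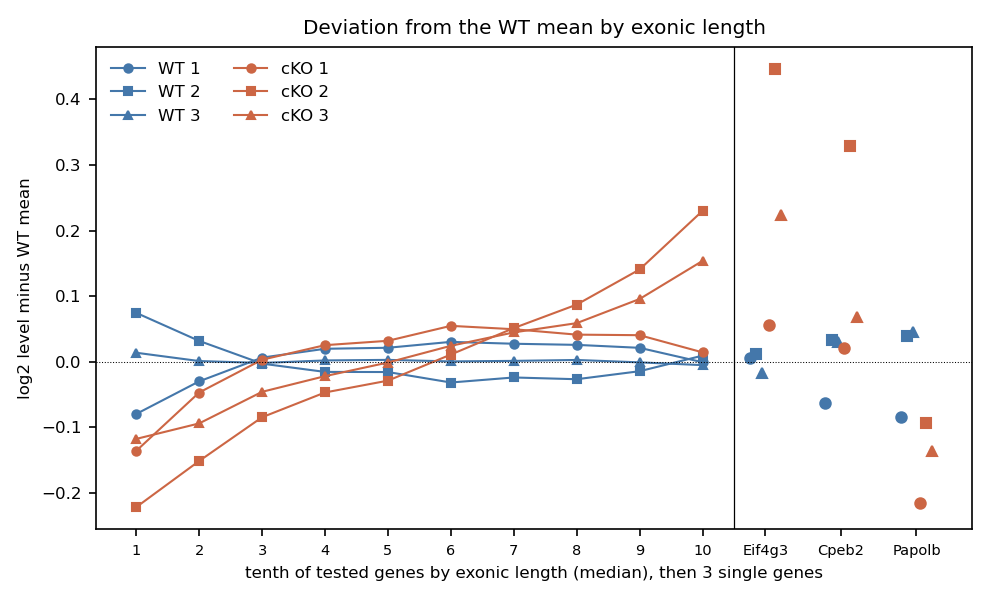
Log2 level minus the WT mean (vertical) as the median over 10 bins of genes by exonic length (left, 1 shortest to 10 longest), and for 3 single genes (right), in each library. In bin 10 cKO replicates 2 and 3 lie at 0.23 and 0.15, and Eif4g3 lies at 0.45 and 0.22 in the same libraries.

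The genes most alike to Eif4g3 and Papolb in log2 CPM over the 6 libraries were taken from the 16830 others averaging 1 CPM or more. For Eif4g3 they were Brpf3, Sfmbt1 and Cnot4, each with a Pearson r of at least 0.998 and 8.64 to 9.78 kb of exons. For Papolb they were Catspere1, Gm44535 and Zfp119b, with r from 0.993 to 0.999 and 2.17 to 3.14 kb of exons. Such likeness was common: 643 genes had an r over 0.95 with Eif4g3 and 103 with Papolb. These values come from 6 shared libraries and describe likeness alone.

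Other genes of the translation pathway were read from 3 further lists. Of 17 tested genes of cap-dependent initiation and poly(A) binding, 0 passed the edgeR threshold, 3 had an unadjusted p under 0.05 and the median log2 fold change was 0.03. Eif4a2, a helicase of the cap-binding complex, had 149, 156 and 158 CPM in WT and 138, 128 and 138 CPM in cKO libraries, a log2 fold change of -0.20 (edgeR adjusted p = 0.298). Paip2, an inhibitor of poly(A)-binding protein, had -0.16 and Eif4ebp2, a repressor of cap-dependent initiation, 0.19 (edgeR adjusted p = 0.338 and 0.315). Of 29 tested RNA-binding proteins of germ cells, 0 passed, 27 lay above 0 and the median was 0.11, beside 59.6% above 0 and a median of 0.03 among genes averaging 10 CPM or more. The exonic lengths of these genes ran from 0.924 to 14.2 kb. Length bins 8, 9 and 10, from 5.63 kb upwards, had medians of 0.07, 0.10 and 0.14. The part of length in the values of this list was not tested. Larp1, which binds the cap and tail of messages, and Celf1, which binds GU-rich elements, had log2 fold changes of 0.20 and 0.17 without overlap of the groups (edgeR adjusted p = 0.315 and 0.350).

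The messages that such proteins are known to store or bind were the last list. Of 15 genes, 0 passed the edgeR threshold, 8 lay below 0 and the median was -0.09. The exonic lengths of these genes ran from 0.41 to 3.03 kb, within length bins 1 to 4. Those bins had medians of -0.17, -0.10, -0.04 and -0.01. The part of length in the median of this list was not tested. The list holds 6 of 6 elongating spermatid markers given above, so it is not independent of them. Tnp1, a transition protein of condensing spermatids and a classic stored message, had 2125, 2695 and 2683 CPM in WT and 1836, 1685 and 2172 CPM in cKO libraries, overlapping through WT replicate 1. Its log2 fold change was -0.40 (SE 0.11, edgeR adjusted p = 0.276). Tnp1 passed without WT replicate 1 (edgeR adjusted p = 0.0470), in a fit that called 116 genes in all. Pgk2, the glycolytic kinase of late germ cells, had -0.17 (edgeR adjusted p = 0.352). Tnp1 has 0.437 kb of exons and thus belongs to the shortest length bin. The part of length and of spermatid markers in its value was not tested.

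The opposite strand of each gene was also read. Reads on the strand not expected for the gene made up 0.0229% of the reads of Dazl and 0.0269% of those of Ddx25, and at most 1.37% in the regulators other than Cpeb1. Cpeb1 had 3.47%. Counting without regard to strand changed no direction among the 10 genes.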

How the data were processed

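Reads per gene were deposited by the authors as raw counts, one table per library, with unstranded, gene-strand and opposite-strand columns for 53700 Ensembl identifiers in the layout of STAR. STAR, HTSeq, DESeq2 and mm10 are named in the submitters' processing notes, with no role, version or annotation release. Opposite-strand counts held 96.0% to 96.2% of strand-assigned reads and were used. Lines that name no gene held 14.8% to 16.7% of reads and were left out. Symbols, positions and lengths came from GENCODE M21 (GRCm38), which matched 52147 identifiers.

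edgeR 4.0.16 in R 4.3.3 was used with TMM scaling, filterByExpr (minimum count 10), a quasi-likelihood F test of group alone, and p-values adjusted by Benjamini-Hochberg across 21902 genes, threshold 0.05. CPM uses TMM-scaled library sizes. The procedure was tested on simulated data that held no trend with exonic length. Recovery of a log2 change of 1 passed its check for genes at 1 CPM or more. A first check over genes of every level had failed. Alternatives were other scalings, filters and thresholds, unstranded counts, a replicate block, robust fitting, DESeq2 1.42.0, each library left out and, added after the data were seen, a loess length correction (span 0.3). Members and lists were chosen with earlier results of these data known. Named genes were the 10 members, 11 relatives, up to 4 genes per further list with the smallest unadjusted p under 0.05, Msl3, and the 3 genes most alike to each of the 2 members with the smallest p. Radil and Gm18584 were named after their values were seen. 1 gene that this rule names is not reported here.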

Additional observations from a re-analysis of the deposited data

How the results depend on the processing

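The count of regulators past the threshold was 0 in 15 of 16 alternatives, and 0 to 1 when a library was left out. The 4 genes called in all became 757 without a filter on low counts, 2 with unstranded counts and 193 with DESeq2, and 1 to 628 when a library was left out. Genes of the 4 lists beside the regulators numbered 0 past the threshold, 1 without a filter on low counts and 1 with DESeq2 (Tnp1 both times), and 0 to 1 when a library was left out. At an unadjusted p under 0.05 the regulators numbered 1 with the length correction and 0 to 3 when a library was left out, against 2. Of all tested genes these were 8.90% and 6.36% to 18.2%, against 13.9%. Groups without overlap numbered 1 with library totals alone and 3 to 7 when a library was left out, against 3. Of all tested genes these were 18.3% and 23.5% to 37.5%, against 18.9%. Of the 10 regulators, 7 kept their direction in 15 of 15 alternatives. Boll turned to -0.0044 with library totals alone and -0.034 without cKO replicate 2, and ran up to 0.091 when a library was left out. Ybx2 turned to -0.0038 with library totals alone, -0.04 when WT replicate 2 was left out and -0.052 without cKO replicate 1, its highest value being 0.085. Ybx3 turned to -0.022 with library totals alone, -0.0041 without a filter, -0.0031 with 10 reads in every library, -0.05 when WT replicate 2 was left out and -0.081 without cKO replicate 1, its highest value being 0.058. The log2 ratio of Cpeb1 to Cpeb2 ran from -0.10 to 0.14 when a library was left out, turning to -0.10 without WT replicate 2, -0.06 without cKO replicate 1 and -0.03 without cKO replicate 3. The cause was not tested. Correlations between the deviations of libraries with the same number were 0.35, 0.26 and -0.05. Those between libraries of different numbers were not computed, so these values cannot decide whether the numbers pair mice. The main test used group alone. A replicate block gave 49 genes in all and 0 regulators. With it 18.7% of all tested genes had an unadjusted edgeR p under 0.05, against 13.9% without.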
